A study of Homo sapiens with 14 samples.

Results

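The genes described here are 8 genes of the actin filament machinery, among 62699 genes counted in 14 RNA sequencing libraries. They are the tropomyosin genes TPM1, TPM2, TPM3 and TPM4 and the smooth muscle marker genes ACTA2, TAGLN, CNN1 and MYL9. They were picked by gene symbol with earlier results of these data in view. The values that chose them were the level in each cell line and the ratio of each ADAR siRNA library to the control siRNA library of the same line, so those levels and ratios are given as a description with no test. Of the 8 genes, 7 had more than 3 counts in every library. CNN1 did not and is treated apart.

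The libraries came from 4 established human cancer lines, of which 2 are from triple-negative breast cancer (MDA-MB-231, BT-549), 1 from lung (NCI-H1395) and 1 from stomach (AGS). In each line, cells given an siRNA against ADAR (libraries numbered 1 and 2) were set against cells given a control siRNA (1 library). In MDA-MB-231, cells overexpressing NOP14 (1 library) were set against cells labelled PCDH, the control of that experiment (1 library). ADAR encodes the enzyme ADAR1, which turns adenosine into inosine in double-stranded RNA, and NOP14 is a nucleolar protein that takes part in making the small ribosomal subunit. An siRNA is a short RNA that directs cleavage of a matching transcript. The study asked how both proteins act on transcript output. Whether libraries 1 and 2 are repeats of 1 siRNA or come from different siRNAs, and whether they come from separate cultures, was not given in the sources used here. Spread between them may therefore be technical.

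Tropomyosins are coiled-coil proteins that lie end to end along the groove of the actin filament. They influence which myosins and which severing or capping proteins reach it. Each of the 4 genes gives several isoforms through alternative promoters and splicing. TPM1 and TPM2 give the long isoforms of muscle and of stress fibres, while TPM3 and TPM4 are known above all for short cytoskeletal isoforms. ACTA2 is the alpha actin of smooth muscle and of activated fibroblasts, TAGLN (transgelin, SM22) bundles actin filaments, CNN1 (calponin) restrains the myosin ATPase in smooth muscle, and MYL9 is the regulatory light chain whose phosphorylation switches on smooth muscle and non-muscle myosin. Many of these genes are known targets of SRF, a transcription factor that binds the CArG box together with cofactors of the myocardin family. Of those cofactors, MRTFA and MRTFB are held in the cytoplasm by free actin and are released when it polymerises. The counts are per gene, so isoforms cannot be told apart.

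The CArG box is CC, then 6 bases that are each A or T, then GG, and it reads the same on both strands. It was searched in the 250 bases before each RefSeq start site of GRCh38.p14, where 6 of the 8 genes (11 start sites) were found and TAGLN and MYL9 were not. Of 35116 such windows of all genes, 1.16% hold the motif, and 5.96% hold a form with 1 G or C among the 6 central bases. The windows below are shown because they are the ones among the members that hold either form. The first is one of 3 start sites of TPM4 (chr19:16067288-16067537, plus strand), with 1 CArG box starting at position -173 from the transcript start. The second is one of 2 start sites of ACTA2 (chr10:88952774-88953023, minus strand), with 2 boxes of the substituted form starting at -121 and -71. Both are printed 5' to 3' along the gene's own strand with the boxes in capitals. A match describes the sequence only, and its absence from the other windows says only that these letters are not there.
TPM4: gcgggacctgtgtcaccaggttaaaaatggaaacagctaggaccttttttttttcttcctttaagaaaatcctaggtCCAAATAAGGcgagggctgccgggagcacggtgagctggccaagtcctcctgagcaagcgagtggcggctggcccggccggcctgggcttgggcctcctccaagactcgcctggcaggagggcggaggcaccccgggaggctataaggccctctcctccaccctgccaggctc
ACTA2: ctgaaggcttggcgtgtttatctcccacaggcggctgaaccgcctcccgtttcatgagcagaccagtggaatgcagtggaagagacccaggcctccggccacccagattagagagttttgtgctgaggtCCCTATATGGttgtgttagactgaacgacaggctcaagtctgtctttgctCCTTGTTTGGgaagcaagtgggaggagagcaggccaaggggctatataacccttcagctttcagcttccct

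Total counts per library ranged from 13338338 to 27828376. Levels are counts scaled by library size (CPM) after TMM scaling over all 14 libraries. Ratios are log2 ratios of such CPM with a prior count of 2, ADAR siRNA over control siRNA. ADAR itself was left at 32.3% and 33.8% of its control level in MDA-MB-231, 12.9% and 11.5% in BT-549, 10.6% and 11.9% in NCI-H1395, while AGS kept 17.6% and 24.0% (libraries 1 and 2). NOP14 was at 852 CPM with overexpression and 129 CPM with PCDH. In MDA-MB-231, 156 expressed genes on the end of chromosome 9 had median log2 ratios of -0.95 and -0.72 with ADAR siRNA. The same genes had medians of -0.38 and 0.03 in AGS and -0.01 to 0.04 in the other lines, and 0.41 for PCDH over control siRNA. The median of all 12090 expressed genes was 0.22 for PCDH over control siRNA. With ADAR siRNA in MDA-MB-231 it was -0.13 and -0.02. None of the members lies in that stretch. These were not smooth muscle cells by their markers: the summed level of 6 defining genes (MYOCD, MYH11, LMOD1, DES, ACTG2, SYNPO2) was 0.115 to 10.6 CPM, MYOCD had 0 to 2 counts and MYH11 0 to 9. In these bulk libraries, fewer cells that use a gene and less RNA of it per cell cannot be told apart.

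TPM4 was higher with ADAR siRNA in both libraries of 3 lines, all but MDA-MB-231. Its level was 1076 and 1323 CPM in the BT-549 libraries with ADAR siRNA, against 634 CPM with control siRNA. In NCI-H1395 it was 292 and 369 CPM with ADAR siRNA, against 148 CPM with control siRNA, and in AGS 930.1 and 748 CPM against 443 CPM. Both ADAR siRNA libraries stood above the control in these 3 lines, 1.69 to 2.49-fold, with log2 ratios of 0.76 and 1.06 in BT-549, 0.98 and 1.32 in NCI-H1395, and 1.07 with 0.76 in AGS. In MDA-MB-231 the 2 ADAR siRNA libraries had 1318 and 1636 CPM and fell either side of the control at 1385 CPM, with log2 ratios of -0.07 and 0.24. TPM4 thus stood higher in 7 of 8 libraries, and in 8 of 8 when library totals replaced TMM, since library 1 of MDA-MB-231 then came to 0.12. The mean log2 ratio over the 4 lines was 0.76 ± 0.47 (SD, n = 4), and 0.99 without MDA-MB-231.

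TPM3 lay the other way, by less. MDA-MB-231 had 597 and 758 CPM with ADAR siRNA, against 1026 CPM with control siRNA. BT-549 had 530.2 and 440.4 CPM against 562 CPM, NCI-H1395 had 424 and 371 CPM against 551 CPM, and AGS had 888 and 553 CPM against 832 CPM, each with ADAR siRNA against control siRNA. TPM3 was below the control in 7 of 8 ADAR siRNA libraries under each of the 3 scalings tried (TMM, median ratio, library totals), and the exception was library 1 of AGS. The log2 ratios were -0.78 and -0.44 in MDA-MB-231, -0.09 and -0.35 in BT-549, -0.38 and -0.57 in NCI-H1395, while AGS had 0.09 and -0.59, with a mean over lines of -0.39 ± 0.19 (SD, n = 4). The lowest ratios were those of library 1 of MDA-MB-231 and library 2 of AGS. TPM3 lies 387 kb from ADAR on chromosome 1 with 6 expressed genes between them. The 50 expressed genes nearest to TPM3 had median log2 ratios of -0.33 and -0.12 in MDA-MB-231, -0.05 and -0.13 in BT-549, 0.05 and -0.05 in NCI-H1395, while AGS had -0.28 and 0.03. TPM3 has 9 named pseudogenes in the table, which took 0.730% to 6.49% of the counts summed over TPM3 and them, and how reads were split between near-identical copies is uncertain.

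TPM1, which gives muscle and stress fibre isoforms, differed as much between libraries 1 and 2 as between treatments. NCI-H1395 had 193 and 555 CPM with ADAR siRNA, against 293 CPM with control siRNA, so 1 library lay on each side of the control (log2 ratios -0.60 and 0.92). BT-549 had 199 and 363 CPM with ADAR siRNA, against 178 CPM with control siRNA (0.16 and 1.03). Library 2 was the higher one in both lines, by 1.53 and 0.86 on the log2 scale. MDA-MB-231 had 74.2 and 86.9 CPM with ADAR siRNA, against 98.5 CPM (-0.41 and -0.18), and AGS had 84.7 and 68.1 CPM against 79.7 CPM (0.09 and -0.23). The mean over lines was 0.10 ± 0.38 (SD, n = 4); it was 0.38 from the libraries numbered 2 and -0.19 from those numbered 1.

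TPM2, the beta tropomyosin of muscle and stress fibres, had log2 ratios between -0.57 and 0.49. BT-549 had 782 and 829 CPM with ADAR siRNA, against 589 CPM with control siRNA, which gave log2 ratios of 0.41 and 0.49. MDA-MB-231 had 36.4 and 39.4 CPM with ADAR siRNA against 33.4 CPM (0.12 and 0.24), and NCI-H1395 had 171 and 201 CPM against 180.4 CPM (-0.07 and 0.16). AGS had 8.44 and 12.1 CPM with ADAR siRNA against 12.6 CPM with control siRNA (-0.57 and -0.06). The ratio farthest from 0 was that of AGS library 1. With library totals in place of TMM, library 1 of NCI-H1395 and library 2 of AGS changed sign, to 0.01 and 0.06. In MDA-MB-231 the 50 expressed genes nearest to TPM2 on chromosome 9 had medians of -0.43 and -0.23, below those of TPM2.

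**Figure D1:**
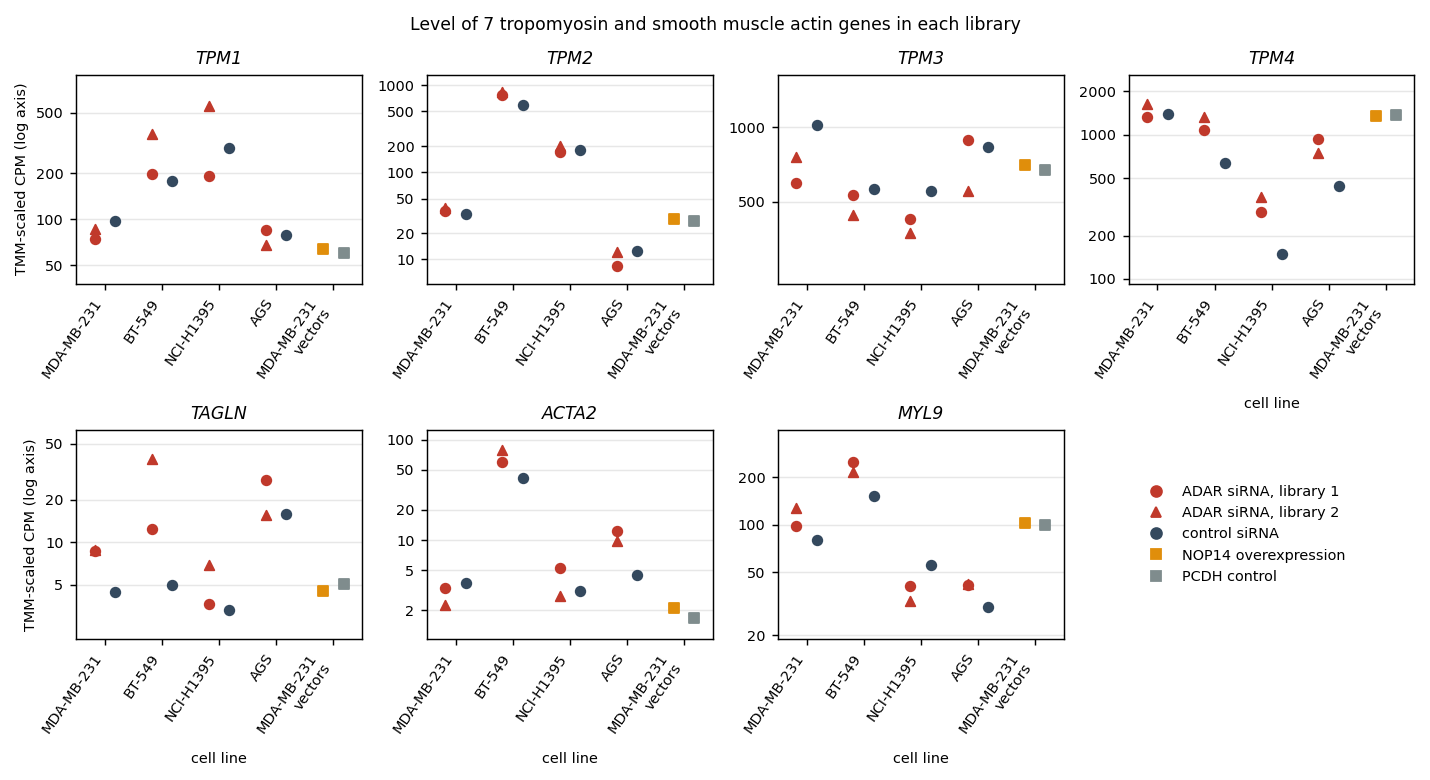
Level of 7 genes in each library as TMM-scaled CPM on a log axis, 1 panel per gene and 1 column per cell line, with ADAR siRNA (circle for library 1, triangle for library 2) left of control siRNA and NOP14 overexpression left of PCDH. For TPM4 both ADAR siRNA points lie above the control in BT-549, NCI-H1395 and AGS and on either side of it in MDA-MB-231; TPM2 spans 8.44 to 829 CPM between lines with small steps within them.

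The tropomyosin gene with the largest share differed between lines. To compare genes, CPM was divided by the exon length of each gene in the deposited table, which is the union of its isoforms and so understates a gene that uses a short isoform. On this scale (CPM per kb of exon, as a share of the sum of the 4 genes), TPM4 held the largest share in the MDA-MB-231 control siRNA library (56.8%), TPM2 in those of BT-549 (64.8%) and NCI-H1395 (45.3%), and TPM3 in that of AGS (54.9%). The exon length was 3183 bases for TPM2 and 12375 to 15130 for the other genes, so the lead of TPM2 depends on this divisor. In plain CPM with control siRNA, TPM4 (634) stood above TPM2 (589) in BT-549. In the NCI-H1395 control, TPM3 (551) and TPM1 (293) stood above TPM2 (180.4). With ADAR siRNA the share of TPM4 was higher in all 8 libraries: 65.6% and 65.9%, against 56.8% with control siRNA, in MDA-MB-231, 22.8% and 25.4% against 17.9% in BT-549, 19.9% and 19.2% against 9.57% in NCI-H1395, and 52.8% and 57.4% against 35.8% in AGS. The share of TPM3 was lower in all 8: 24.3% and 24.97% against 34.4% in MDA-MB-231, 9.19% and 6.91% against 13.0% in BT-549, 23.6% and 15.8% against 29.1% in NCI-H1395, and 41.3% and 34.7% against 54.9% in AGS. In AGS, TPM4 had the largest share in both ADAR siRNA libraries and TPM3 in the control siRNA library. Library 2 of AGS with ADAR siRNA (57.4% TPM4 and 34.7% TPM3) was close in these shares to the control siRNA library of MDA-MB-231 (56.8% and 34.4%). Shares within a library do not depend on its scaling, but one gene's share falls when another's grows. In the vector experiment TPM4 held 64.7% with NOP14 overexpression and 65.8% with PCDH, and TPM3 27.4% and 26.6% in the same order.

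**Figure D2:**
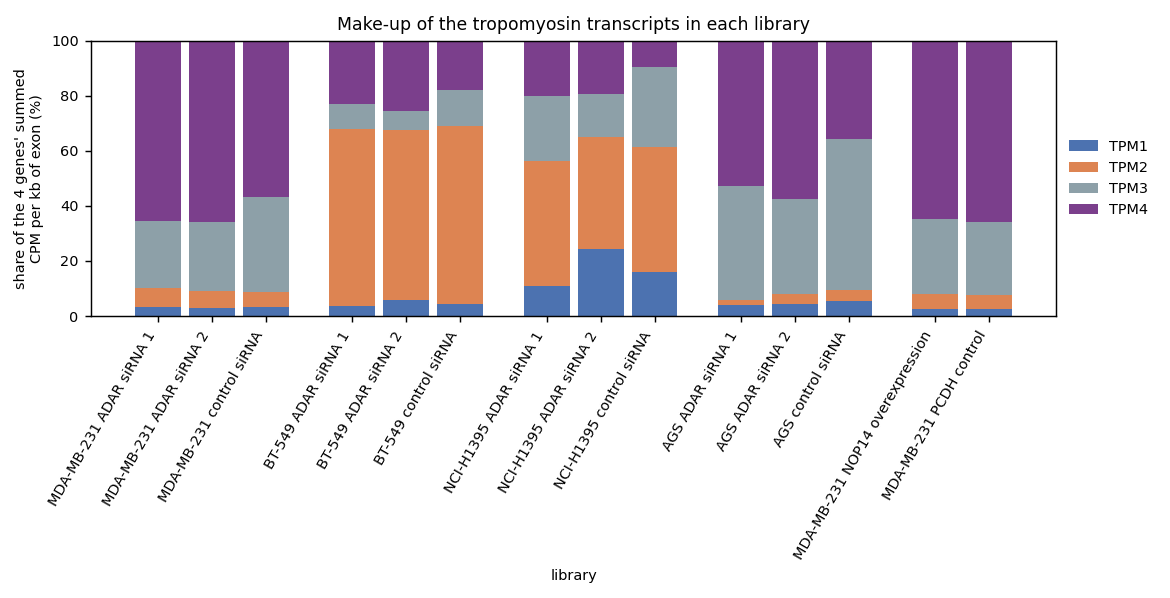
Share of each tropomyosin gene in the summed CPM per kb of exon of the 4 genes (y axis, %), 1 bar per library, with ADAR siRNA left of control siRNA and NOP14 overexpression left of PCDH. The TPM4 part is larger with ADAR siRNA than with control siRNA in every line, from 57.4% against 35.8% in AGS (library 2) to 22.8% against 17.9% in BT-549 (library 1), and TPM2 fills most of the BT-549 bars.

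TAGLN was scarce in all lines, from 62 counts (NCI-H1395, control siRNA) to 869 (BT-549, ADAR siRNA library 2), and showed the largest single ratio of the set. BT-549 had 12.5 and 39.4 CPM with ADAR siRNA, against 4.95 CPM with control siRNA, a 2.53-fold (95% counting interval 1.99 to 3.25) and a 7.95-fold (6.45 to 9.90) difference. MDA-MB-231 had 8.69 and 8.90 CPM with ADAR siRNA against 4.44 CPM with control siRNA (log2 ratios 0.95 and 0.99). In both breast cancer lines the 2 ADAR siRNA libraries stood above the control. In NCI-H1395 the levels were 3.66 and 6.93 CPM with ADAR siRNA against 3.31 CPM (0.14 and 1.04), and in AGS 27.8 and 15.6 CPM against 15.8 CPM (0.81 and -0.02), so in each of these lines 1 library was close to the control. TAGLN was higher in 7 of 8 libraries, and in 8 of 8 with library totals, where library 2 of AGS came to 0.10; its mean over lines was 1.02 ± 0.78 (SD, n = 4). Exons of TAGLN overlap those of PCSK7 on the opposite strand, and no source used here says whether counting used strand. PCSK7 had 642 to 1616 counts, more than TAGLN in every library, with log2 ratios between -0.59 and 0.25 in the same 8 comparisons.

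ACTA2 was chiefly a BT-549 transcript in these lines. BT-549 had 59.7 and 78.6 CPM with ADAR siRNA, against 41.4 CPM with control siRNA (log2 ratios 0.53 and 0.92). AGS had 12.5 and 9.81 CPM with ADAR siRNA, against 4.503 CPM with control siRNA, 2.77-fold (95% counting interval 2.13 to 3.64) and 2.18-fold (1.66 to 2.89) higher. Both ADAR siRNA libraries were above the control in these 2 lines. MDA-MB-231 had 3.37 and 2.24 CPM with ADAR siRNA against 3.74 CPM (-0.15 and -0.71), and NCI-H1395 had 5.23 and 2.81 CPM against 3.10 CPM (0.74 and -0.14), on 37 to 123 counts. With library totals, library 1 of MDA-MB-231 came to 0.03. Exons of ACTA2 overlap FAS on the opposite strand, which had 60 to 1492 counts and log2 ratios between -0.48 and 0.49; in AGS, FAS had 36.4 and 32.6 CPM with ADAR siRNA against 25.8 CPM. The related actin genes ACTA1, ACTC1 and ACTG2 held up to 102 counts together and up to 32.4% of the counts summed with ACTA2, so reads shared between actins could weigh on the low values. That sum leaves out the cytoplasmic actins ACTB and ACTG1, at 4309 and 643 CPM with control siRNA in AGS, so it is no upper limit.

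MYL9 was higher with ADAR siRNA in 3 lines and lower in NCI-H1395. The levels were 98.4 and 128 CPM with ADAR siRNA, against 79.7 CPM with control siRNA, in MDA-MB-231 (log2 ratios 0.30 and 0.69). BT-549 had 251 and 217 CPM against 152 CPM (0.72 and 0.51), and AGS had 41.6 and 42.0 CPM against 30.2 CPM (0.46 and 0.47). In NCI-H1395 the ADAR siRNA libraries had 41.1 and 33.0 CPM and the control siRNA library 55.6 CPM (-0.44 and -0.75). In every line both ADAR siRNA libraries lay on the same side of the control, under all 3 scalings.

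CNN1, the calponin of differentiated smooth muscle, was at the limit of detection. Its highest count was 6, in BT-549 library 2 with ADAR siRNA, and the other 13 libraries had 0 to 2. A count of 0, as in all 3 siRNA libraries of AGS, allows a level of up to 0.175 CPM (3 counts, counting error only). No fold is given for CNN1.

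**Figure D3:**
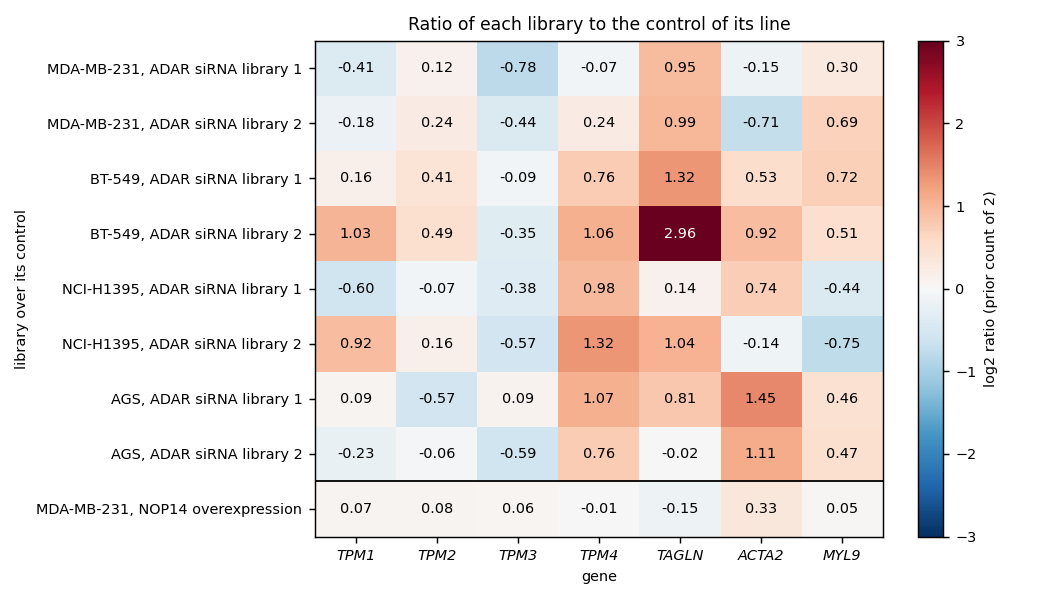
Log2 ratio of each ADAR siRNA library to the control siRNA library of its line (8 upper rows) and of NOP14 overexpression to PCDH (bottom row) for 7 genes, with a prior count of 2; red is higher and blue lower than the control. TPM4 and TAGLN are red in 7 of 8 upper rows, TPM3 is blue in 7 of 8, and the bottom row runs from -0.15 (TAGLN) to 0.33 (ACTA2).

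Counted by a ratio above 1.5-fold in both libraries of a line, TAGLN was higher in MDA-MB-231, TPM4 and TAGLN in BT-549, TPM4 in NCI-H1395, and TPM4 and ACTA2 in AGS. That is 1, 2, 1 and 2 of 7 members, where 4.04%, 2.23%, 4.09% and 4.58% of the 12090 genes whose log2 CPM averaged 1 or more met the same criterion. None of the 7 was lower by that criterion, met by 4.52%, 1.31%, 3.04% and 2.3% of the 12090 genes in the same order of lines. The members were chosen on these ratios, so the counts carry no inference. The median of the 7 members was 0.53 and 0.92 in BT-549, where the median of all 12090 genes was -0.01 and -0.02. In the other lines it was -0.07 and 0.24 (MDA-MB-231), -0.07 and 0.16 (NCI-H1395) and 0.46 and -0.02 (AGS), beside -0.13 to 0.00 for all genes. The summed mesenchymal markers (VIM, CDH2, FN1, ZEB1, SPARC) were 1817 and 2627 CPM with ADAR siRNA and 1976 CPM with control siRNA in BT-549, where 4 of the 5 had more than 3 counts in each library and 1 had 0 in the control. VIM made most of that sum in BT-549 (1288 and 2009 CPM with ADAR siRNA, 1602 CPM with control siRNA). The log2 ratios there were -0.32 and 0.33 for VIM and -0.17 and 0.12 for ZEB1. They were 0.64 and 1.84 for FN1 and 0.71 and 0.78 for SPARC, so the sum does not stand for each marker. In AGS the summed mesenchymal markers were 13.5 and 11.8 CPM with ADAR siRNA and 6.08 CPM with control siRNA, with up to 2 of the 5 at 0 counts. In MDA-MB-231 they were 1486 and 1657 CPM with ADAR siRNA and 1748 CPM with control siRNA. NCI-H1395 had 1587 and 2692 CPM with ADAR siRNA and 2528 CPM with control siRNA. Of these, VIM made 1441, 2508 and 2380 CPM in the same order. Epithelial markers (EPCAM, CDH1, KRT8, KRT18, KRT19) summed to 98.1 and 76.5 CPM with ADAR siRNA and 75.4 CPM with control siRNA in BT-549, with 2 of 5 at 0, and to 3665 and 4784 CPM with ADAR siRNA and 5269 CPM with control siRNA in AGS, with none at 0. With ADAR siRNA they summed to 1625 and 2232 CPM in MDA-MB-231, against 2258 CPM with control siRNA. In NCI-H1395 they were 671 and 629 CPM with ADAR siRNA against 749 CPM, with CDH1 at 0 in the control. KRT18 (493 and 389 CPM against 583 CPM) and KRT8 (177 and 238 CPM against 166 CPM) made most of that sum, in opposite directions. The part of these differences in the ratios of the members was not tested.

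Between lines, TPM2 gave the clearest order of levels: BT-549 (589 to 829 CPM over its 3 siRNA libraries), NCI-H1395 (171 to 201), MDA-MB-231 (33.4 to 39.4) and AGS (8.44 to 12.6), with no overlap between neighbours. MYL9 was ordered BT-549, MDA-MB-231, NCI-H1395 and AGS by control level, and the ranges of NCI-H1395 and AGS overlapped. ACTA2 in BT-549 (41.4 to 78.6 CPM) stood apart from all other lines (2.24 to 12.5 CPM), and its range in NCI-H1395 overlapped those of MDA-MB-231 and AGS. For TPM1, NCI-H1395 and BT-549 overlapped above MDA-MB-231 and AGS, which also overlapped. For TPM4 the control order was MDA-MB-231, BT-549, AGS and NCI-H1395, and NCI-H1395 alone stood apart from its neighbour. Neighbouring lines in the control order overlapped throughout for TPM3 and TAGLN. For TAGLN, AGS (15.6 to 27.8 CPM) lay above MDA-MB-231 (4.44 to 8.90) and NCI-H1395 (3.31 to 6.93). It overlapped BT-549 (4.95 to 39.4) only through ADAR siRNA library 2 of BT-549. The mesenchymal markers summed to 1486 to 2692 CPM in MDA-MB-231, BT-549 and NCI-H1395 and to 6.08 to 13.5 CPM in AGS. AGS was the line with the lowest TPM2 and the highest TAGLN with control siRNA.

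NOP14 overexpression, a contrast that did not choose these genes, left them close to the PCDH control. The levels were 63.9 CPM with NOP14 and 60.8 CPM with PCDH for TPM1, 29.0 and 27.4 CPM for TPM2, 703 and 675 CPM for TPM3, and 1358 and 1365 CPM for TPM4, in the same order. TAGLN had 4.52 CPM with NOP14 and 5.04 CPM with PCDH, ACTA2 2.13 and 1.67 CPM, and MYL9 103 and 99.99 CPM. No member was past 1.5-fold in either direction, where 0.438% of 12090 genes were higher and 0.744% lower by that much. The largest ratio, 1.27-fold for ACTA2, rested on 48 and 43 counts and has a 95% counting interval of 0.827 to 1.97; that of TPM4, 0.995-fold, has one of 0.980 to 1.01. With 1 library in each arm there is no replicate check and no test. Among the pathway genes of that level, none of 13 smooth muscle contractile genes, 23 non-muscle actomyosin genes and 19 regulators of SRF and actomyosin was past 1.5-fold, and the ratios ran from -0.14 to 0.34. The PCDH library was not interchangeable with the control siRNA library of the same line: TPM1 (60.8 against 98.5 CPM), TPM3 (675 against 1026 CPM) and ACTA2 (1.67 against 3.74 CPM) were more than 1.5-fold lower with PCDH, as were 11.6% of the 12090 genes. No member was more than 1.5-fold higher with PCDH than with control siRNA, where 27.7% of the 12090 genes were.

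Other genes of the actin pathway were tested with edgeR's quasi-likelihood test and Benjamini-Hochberg adjustment over all genes, in 3 lists that leave out the members. Over the 4 lines, with the 2 ADAR siRNA libraries of a line summed, 0 of 64 tested pathway genes passed an adjusted p of 0.05, where 0.0182% of all 21944 genes did. At an unadjusted p under 0.05 there were 9 of the 64, where 11.5% of all genes met that threshold. DESeq2 called 2 of the 64, VCL and VASP, both lower, and 3.08% of all genes, so the share called among the pathway genes was near that of all genes. Of 20 smooth muscle contractile genes, 13 had a fold change above 0 and 7 below (median log2 fold change 0.07); of 25 non-muscle actomyosin genes, 10 were above and 15 below (median -0.06); of 19 regulators, 10 were above and 9 below (median 0.02). The median of all genes was 0.06.

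Within the contractile list, the smallest p belonged to SYNPO2, TAGLN2 and ACTC1. SYNPO2 (synaptopodin 2, an actin bundling protein) had at most 36 counts and ACTC1 had 3 or fewer counts in most libraries, so no fold is given for them. The highest count of ACTC1 was 100, in ADAR siRNA library 2 of BT-549, against 4 in library 1 and 8 in the control. TAGLN2, the transgelin that non-muscle cells use, had a log2 fold change of -0.32 ± 0.12 (SE; edgeR adjusted p = 0.297). CALD1 (caldesmon) was at 276 and 406 CPM in BT-549 with ADAR siRNA, against 172 CPM with control siRNA, the smallest p of its list in that line (log2 fold change 0.99 ± 0.30, edgeR adjusted p = 1). Over the 4 lines CALD1 came to 0.23 ± 0.18 and CNN3, a calponin outside muscle, to -0.02 ± 0.13 (edgeR adjusted p = 0.685 and 0.972).

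Among the non-muscle actomyosin genes, VCL (vinculin, which links talin to actin at adhesions) had the smallest p of all 64, with a log2 fold change of -0.55 ± 0.12 (SE) and an edgeR adjusted p of 0.138. Its level was 388 and 421 CPM in MDA-MB-231 with ADAR siRNA, against 600 CPM with control siRNA, and 550 and 187 CPM against 788 CPM in NCI-H1395. In BT-549 it was 626 and 370.3 CPM with ADAR siRNA against 607 CPM, and in AGS 385 and 156 CPM against 352 CPM, so only library 2 was below the control in these lines. DESeq2 gave an adjusted p of 0.00335 for VCL over the 4 lines and 0.0278 for VASP, an actin filament elongation factor, whose log2 fold change in edgeR was -0.35 ± 0.11 (adjusted p = 0.248). PALLD (palladin) came to 0.39 ± 0.14 (edgeR adjusted p = 0.286). The cytoplasmic actins ACTB and ACTG1 had log2 fold changes of -0.22 ± 0.13 and -0.09 ± 0.14 (edgeR adjusted p = 0.539 and 0.878).

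Among the regulators, RHOB stood above the control in all 8 ADAR siRNA libraries. NCI-H1395 had 143 and 74.2 CPM with ADAR siRNA, against 34.1 CPM with control siRNA, and AGS had 709 and 489 CPM against 446 CPM. BT-549 had 22.2 and 23.3 CPM with ADAR siRNA against 14.1 CPM, and MDA-MB-231 had 14.1 and 17.99 CPM against 13.6 CPM. The fold change over the 4 lines was 0.80 ± 0.24 (SE, log2; edgeR adjusted p = 0.28). DIAPH3, a formin that nucleates actin, came to -0.47 ± 0.14 (0.226), and MRTFA, a cofactor of SRF, to 0.26 ± 0.12 (0.422), both as log2 fold changes with edgeR adjusted p. SRF itself had -0.08 ± 0.12 and MRTFB 0.16 ± 0.14 (edgeR adjusted p = 0.852 and 0.719). MYOCD, the smooth muscle cofactor of SRF, had too few counts for a fold.

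**Figure D4:**
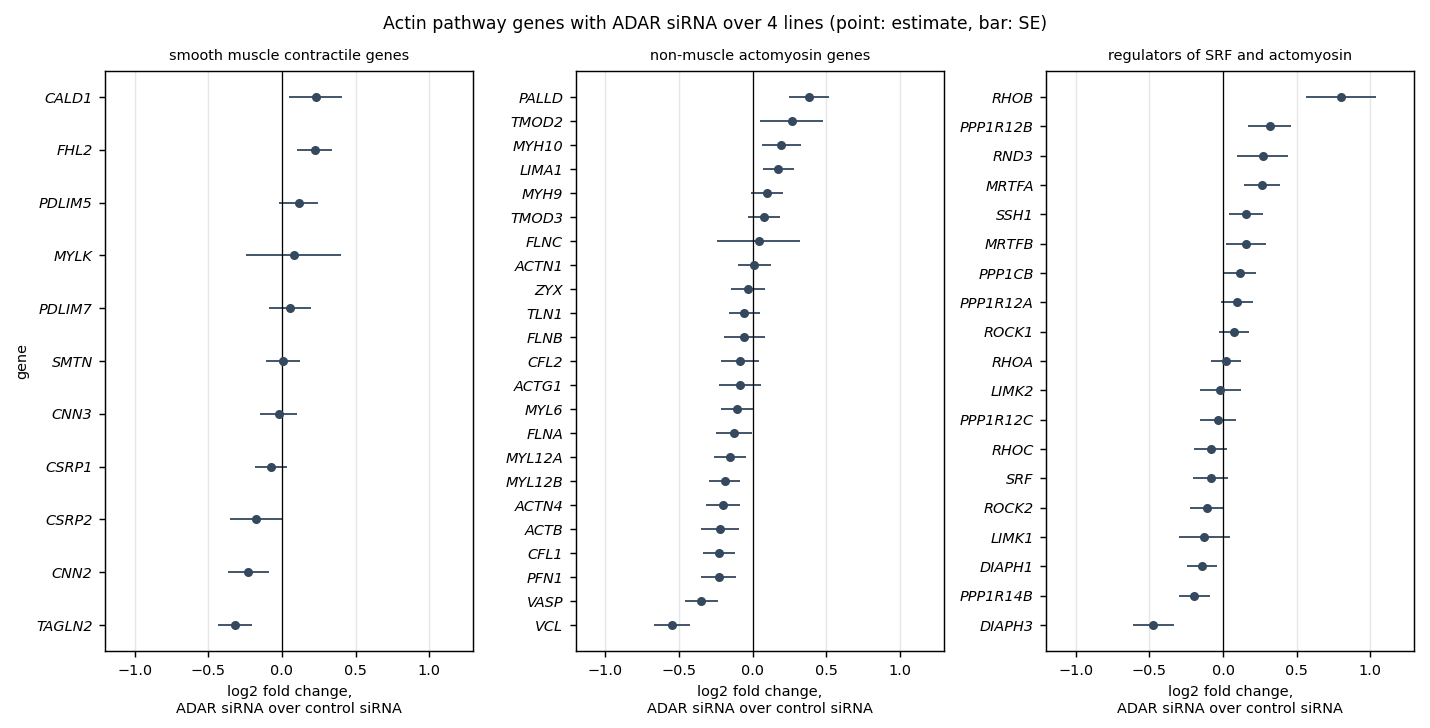
Log2 fold change of actin pathway genes, ADAR siRNA over control siRNA, over the 4 lines (point: edgeR estimate; bar: ± 1 SE), for the 53 of 64 tested genes with more than 3 counts in every siRNA library. No gene passed an adjusted p of 0.05; RHOB lies farthest to the right (0.80) and VCL farthest to the left (-0.55).

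Within single lines edgeR called 0 of 65 pathway genes in each of the 4 lines, where 0.0751% of 23959 genes were called in MDA-MB-231 and 0.00417% in each of the others. An unadjusted p under 0.05 was found for 3 (MDA-MB-231), 5 (BT-549), 7 (NCI-H1395) and 4 (AGS) of the 65, and for 4.85%, 3.1%, 5.3% and 4.98% of all genes in the same order of lines. The spread in this fit comes from the ADAR siRNA pairs, and the lone control was taken to vary like them. In NCI-H1395, MYH14, a heavy chain of non-muscle myosin, had 2.13 and 3.46 CPM with ADAR siRNA against 0.267 CPM with control siRNA (log2 fold change 3.34 ± 0.60, edgeR adjusted p = 0.143). That control level lies near the floor of 3 counts, 0.160 CPM in this library, so the size of the fold is uncertain. RHOB had a log2 fold change of 1.67 ± 0.37 in NCI-H1395 (edgeR adjusted p = 0.239). DESeq2 called MYH14 and RHOB in that line (adjusted p = 0.00546 for each) and 0 in the other lines. It called 0.196% of all genes in NCI-H1395 and 0.188% (MDA-MB-231), 0.0125% (BT-549) and 0.0584% (AGS) in the others. In MDA-MB-231, LIMK1, the kinase that inactivates cofilin, had 37.1 and 47.6 CPM with ADAR siRNA against 82.7 CPM with control siRNA (-0.96 ± 0.27, edgeR adjusted p = 0.334). The test of a difference between lines called 0 of the 65, where 0.0292% of 23959 genes were called. At an unadjusted p under 0.05 there were 8 of the 65 and 3.37% of all genes, and DESeq2 called 0 of the 65 and 0.179% of all genes.

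Likeness between genes over the 14 libraries, measured as Pearson's r of log2 CPM, mainly shows which lines use a gene, since libraries of 1 line share a background. Among the members the highest r was 0.80, between TPM1 and TPM2, and the lowest -0.73, between TPM1 and TPM3. TPM4 and TPM3 had an r of 0.43, and TAGLN and ACTA2 0.56. Of 12089 other genes whose log2 CPM averaged 1 or more, those most like TPM2 were TBXA2R (0.98), MYPN (0.98) and KCNMA1 (0.97), and those most like ACTA2 were GGACT (0.97), JAK1 (0.95) and NQO1 (0.95). TPM4 was most like STX2, CRADD and RIN2 (0.96 each), TPM1 most like EFR3B, DKK3 and FOXD1 (0.94, 0.93 and 0.92), and TPM3 most like RALA, DEK and ENOPH1 (0.93, 0.92 and 0.91). MYL9 was most like BRCC3, RPA1 and RAMP1 (0.96 each). For TAGLN the highest values were lower, 0.89 for ZNF281, 0.87 for THUMPD1 and 0.86 for DSTYK.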

How the data were processed

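Poly(A) RNA of 14 libraries was sequenced, per the labels' protocols. Per the submitters' processing notes, fastp 0.23.4, STAR 2.7.11a and featureCounts 2.0.6 were used on hg38. A strand setting was not given in the sources used here. The authors deposited integer counts per gene and library; 3 broken lines of 62702, belonging to 1 gene, were not used.

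Counts were scaled with TMM in edgeR 4.0.16 (R 4.3.3) over all 14 libraries, and log2 ratios took a prior count of 2. Counting intervals (exact, 95%) and the floor of 3 counts cover counting error only. Genes outside the members were tested with edgeR's robust quasi-likelihood fits over all genes: ADAR siRNA libraries summed per line with cell line as a term, 8 groups for single lines, and an F test for differences between lines. DESeq2 1.42.0, other scalings, filters and left-out libraries were alternatives. With nothing said of separate cultures, p-values measure only the spread between these samples.

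The members, the 3 pathway lists (67 genes), the markers and the rule for named genes were chosen with earlier results of these data known. The rule named the members, ADAR, NOP14, 9 set pathway genes, the 3 smallest p per comparison and list (examples are given, low-count genes without a fold), and the 3 genes most like each member.

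The fits were tested on simulated data with the spread of the fit with 8 groups. A small set of genes whose log2 CPM averaged 1 or more was changed. The change was the same in all 4 lines, or in BT-549 alone for the test between lines. Over the 4 lines, 80% of the 2-fold and 98% of the 4-fold changes came back with 28 unchanged genes called (20962 genes). That check held no difference in response between lines, so recovery of changes that vary between lines may be lower. Within BT-549, 12% and 73% were recovered with 9 unchanged genes called (21973 genes), and between lines 3% and 46% with 22 called (21892 genes). The numbers in parentheses are all genes fitted, of which only the small set was changed. Unchanged genes called are to be weighed against the changed genes recovered, not against all genes fitted. On that footing false calls were a larger part of all calls in each simulated comparison than the adjusted p threshold of 0.05 allows. That part was largest between lines, where recovery was lowest. In this check the fits did not keep to their threshold. Libraries 1 and 2 of a line differed by more than counting noise (chi-square per degree of freedom 10.6 to 58.7).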

Additional observations from a re-analysis of the deposited data

Results flagged for a closer look

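For 4 members the ADAR siRNA libraries of one line all lay on the other side of their control than those of another line. None of these differences was tested, since the members were chosen on these ratios. For TPM1 the mean log2 ratio in BT-549 minus that in MDA-MB-231 was 0.89. For TPM2, BT-549 minus AGS came to 0.76, and with library totals library 2 of AGS was no longer below its control. For ACTA2, AGS minus MDA-MB-231 came to 1.71, and with library totals library 1 of MDA-MB-231 was no longer below its control. For MYL9, BT-549 minus NCI-H1395 came to 1.20, with the same signs under all 3 scalings.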

How the results depend on the processing

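Median-ratio scaling, library totals and prior counts of 0.5 and 5 left each count of members past 1.5-fold in both libraries of a line, and with NOP14 overexpression, as reported. Taking 1 ADAR siRNA library at a time, the counts of members higher were 1 to 2 in MDA-MB-231, 3 to 4 in BT-549, 2 to 3 in NCI-H1395 and 2 to 3 in AGS, and those lower 1 to 1, 0 to 0, 1 to 1 and 0 to 1. For a single ADAR siRNA library, 4.16% to 11.6% of the 12090 genes were more than 1.5-fold above the control. The share below it by that much was 5.13% to 14%. In BT-549 the shares above were 4.16% for library 1 and 10.2% for library 2. The smaller shares given for both libraries of a line do not apply to these counts. With library totals the median of all tested genes in MDA-MB-231 was 0.12, against 0.01 with TMM. The mean of TPM1 over the 4 lines was 0.38 without library 1 and -0.19 without library 2.

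Of 67 pathway genes tested with no filter beyond 1 count, 3 were called over the 4 lines (RHOB, SYNPO2, VCL). In NCI-H1395 2 were called (RHOB, MYH14) and between lines 1 (MYH14). Of all 41401 genes in those fits, 394, 72 and 126 were called in the same order. DESeq2 called 2 of 64 over the 4 lines and 2 of 65 in NCI-H1395, where it called 47 of 23959 genes. Leaving out 1 ADAR siRNA library leaves 1 library per arm in that line, so only effect sizes are given. Without library 1 of BT-549, FLNC had a log2 fold change of 2.35 in that line. MYH14 had 3.64 without library 1 of NCI-H1395 and 2.96 without library 2. The cause of differences between settings was not tested. Of all genes over the 4 lines, 4 of 21944 were called as reported, 394 of 41401 with no filter and 676 of 21944 with DESeq2. Without MDA-MB-231 75 of 20162 were called, without BT-549 0 of 21010, and without NCI-H1395 0 of 20695.

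Libraries with the same replicate number deviated together in 3 of the 4 lines: the log2 ratios of library 2 to library 1 correlated at 0.20 to 0.46 across genes among BT-549, NCI-H1395 and AGS, and at -0.09 to 0.05 between MDA-MB-231 and each of these. No label says what a number shares, and not every pair was over 0.1, so the number was not used as a pairing. With a replicate block for the number, 4 pathway genes were called in NCI-H1395 (RHOB, VCL, DIAPH3, MYH14), 2 between lines (FLNC, MYH14) and 0 in the other comparisons; of all 23959 genes, 149 were called in NCI-H1395 and 210 between lines.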
